A study of Homo sapiens with 10 samples.

Results

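The genes described here are the hypoxia-inducible factor (HIF) subunits EPAS1, HIF1A and ARNT, the CBP/p300-binding proteins CITED2 and CITED4, and the oxygen-sensing and degradation genes EGLN1, EGLN2, EGLN3, VHL and HIF1AN. They were taken from the deposited table by symbol, which gave 10 rows of 58735, and 9 of the 10 had enough counts for testing among 13934 tested genes. The list was drawn up with the siUSP9X against siCtrl differences of these same libraries known. The differences of the 10 genes in that comparison are therefore given as a description with their errors and without p-values. Where it is said which of them passed the threshold, that is a description too. Nothing is supported with any of these.

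The study sequenced mRNA from HCMECs, a human brain endothelial cell line, in 5 libraries from cells transfected with an siRNA against the deubiquitinase USP9X (siUSP9X) and 5 libraries from cells transfected with a control siRNA (siCtrl). Both groups were transfected for 48 h and then given the ligand Wnt3a for 12 h, so that no group here is without Wnt3a. No oxygen level, hypoxia mimetic or protein measurement is named in the labels. The labels do not say whether separate cultures were used within a group, so the spread between libraries, and p-values made from it, may be technical.

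HIF is a dimer of an oxygen-regulated alpha subunit, HIF-1alpha (HIF1A) or HIF-2alpha (EPAS1, named for its expression in endothelium), and the constitutive beta subunit ARNT. When oxygen is present, the prolyl hydroxylases EGLN1, EGLN2 and EGLN3 (PHD2, PHD1 and PHD3) modify the alpha subunit, the VHL ubiquitin ligase binds the modified protein and the proteasome destroys it, while the asparaginyl hydroxylase HIF1AN (FIH) blocks its contact with the coactivators CBP and p300. CITED2 binds the same domain of CBP and p300 as the HIF alpha subunits and competes with them. Much of this control acts on protein, which counts of mRNA do not measure.

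Library totals ran from 15958362 to 26467787 counts. USP9X itself was at 20.7 to 68.7 CPM (counts scaled to a common library size after TMM normalisation) in siUSP9X libraries and at 283 to 415 CPM in siCtrl libraries, with the highest siUSP9X value in replicate 2. That library also stood apart in composition. The share of cytosolic ribosomal protein genes was 2.15% there, 4.48 to 5.19% in siUSP9X replicates 1, 3, 4 and 5 and 4.85 to 6.45% in siCtrl libraries. The share of the mitochondrial rRNA MT-RNR2 was 1.40%, 0.450 to 0.573% and 0.380 to 0.446% in the same sets. Many of the results below are given with and without it. Of 12 endothelial markers, 8 averaged under 1 CPM, among them PECAM1 (8 counts over the 5 libraries of either group), KDR, VWF and ERG (0 counts), while ESAM stood at 143 and 161 CPM in siUSP9X and siCtrl libraries. With counts pooled over each group, PROCR was at 91.7 and 90.3 CPM, ENG at 58.8 and 84.7 CPM and EGFL7 at 14.6 and 27.9 CPM. The summed level of the 12 markers was 157 to 363 CPM in siUSP9X and 318 to 391.6 CPM in siCtrl libraries. Of the 12, 5 had enough counts for testing and 0 had an edgeR adjusted p under 0.05, beside 7.31% of all tested genes. Of 8 epithelial markers, 4 had enough counts for testing. Of these, 2 (KRT8 and KRT18) passed the same threshold and were lower in siUSP9X, beside 3.22% of all tested genes lower. The summed level of the list was 2337 to 3366 CPM in siUSP9X and 3891 to 5052 CPM in siCtrl libraries, and KRT5 and KRT14 were at 0. KRT7, also pooled over each group, was at 508 CPM in siUSP9X and 775 CPM in siCtrl libraries. The siUSP9X levels of all these markers include replicate 2 and are not given without it. The part of these marker levels in the results below was not tested, and in bulk RNA fewer cells of a type and less RNA per cell cannot be told apart.

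The mean levels of EPAS1 and CITED2 in siUSP9X libraries were 1.98 and 2.40 times those in siCtrl libraries. HIF1A, EGLN1 and HIF1AN were higher by less, and ARNT, VHL, EGLN2 and CITED4 had differences within or close to their standard errors. Of the 9 tested genes, 3 (EPAS1, CITED2 and HIF1AN) had an edgeR adjusted p under 0.05, each higher in siUSP9X, beside 7.31% of all tested genes called in either direction, 4.09% higher and 3.22% lower. EPAS1 and CITED2 kept the call whichever library was left out. HIF1AN kept it only when siUSP9X replicate 2 was left out, and lost it without the count filter and with a replicate block. The groups did not overlap for 4 of the 9 (EPAS1, CITED2, EGLN1 and HIF1AN), beside 14.7% of all tested genes. These counts describe a list chosen on this contrast.

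**Figure D1:**
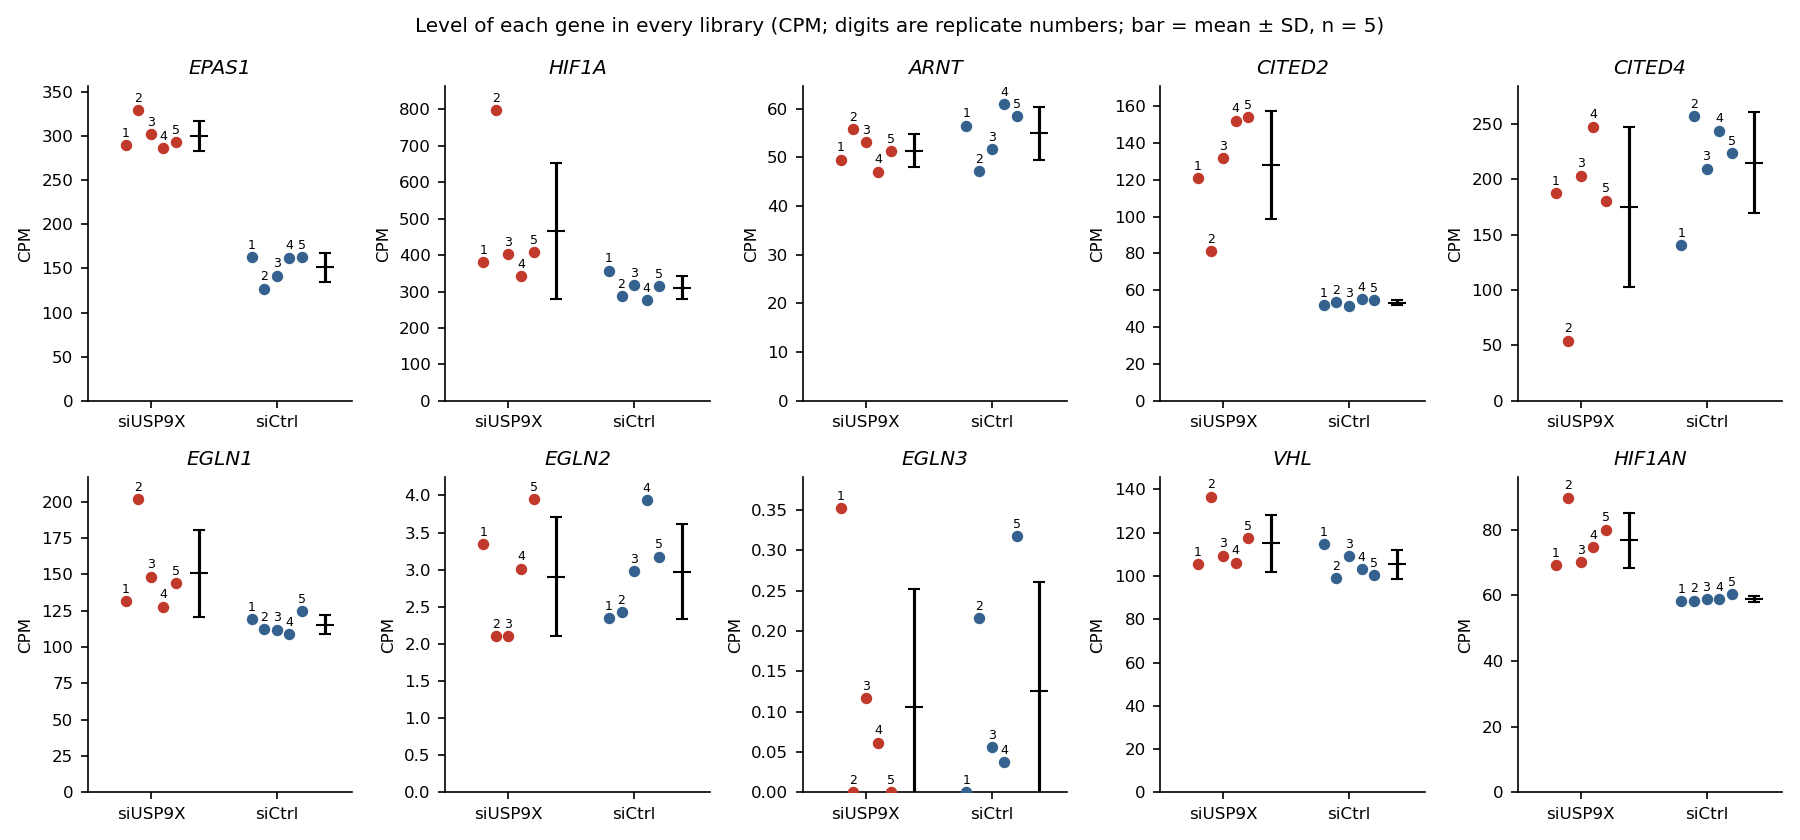
CPM of the 10 genes in each library, siUSP9X (red) left of siCtrl (blue), with replicate numbers beside the points and mean ± SD bars (n = 5 each). EPAS1 lies at 286 CPM or more in every siUSP9X library and at 163 CPM or less in every siCtrl library, and siUSP9X replicate 2 lies far from the other siUSP9X points for HIF1A (797 CPM) and CITED4 (54.5 CPM).

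EPAS1 (ENSG00000116016.13, chromosome 2, 46293667 to 46386703, plus strand, GRCh38), the HIF-2alpha gene, was at 289.9, 329, 302, 286 and 293 CPM in siUSP9X replicates 1 to 5, and at 163, 127, 142, 162 and 163 CPM in siCtrl replicates 1 to 5. The lowest siUSP9X library was well above the highest siCtrl library, and replicate 2 was close to the other siUSP9X libraries for this gene. Means were 300.02 ± 17.4 CPM in siUSP9X and 151 ± 16.3 CPM in siCtrl (SD, n = 5 each), a ratio of 1.98 and a log2 fold change of 0.99 ± 0.10 (SE). Without siUSP9X replicate 2 it was 0.95 ± 0.08, and it stayed between 0.93 and 1.01 whichever library was left out.

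HIF1A (ENSG00000100644.16, chromosome 14, 61695513 to 61748259, plus strand), the HIF-1alpha gene, was at 380, 797, 402, 342 and 408 CPM in siUSP9X replicates 1 to 5, and at 357, 288, 318, 277 and 314 CPM in siCtrl replicates 1 to 5. Replicate 2 held 2.08 times the mean of the other 4 siUSP9X libraries, while siUSP9X replicate 4 lay below siCtrl replicate 1, so the groups overlapped. The means were 466 ± 187 CPM in siUSP9X and 311 ± 31.3 CPM in siCtrl (SD, n = 5 each), and the log2 fold change was 0.58 ± 0.21 (SE). Without replicate 2 the siUSP9X mean was 383 ± 29.7 CPM (SD, n = 4) and the log2 fold change 0.30 ± 0.08. The antisense transcripts HIF1A-AS1 and HIF1A-AS2, which overlap the locus, had 58 and 37 counts over all 10 libraries, while HIF1A had 40340 in siUSP9X and 31080 in siCtrl libraries.

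ARNT (ENSG00000143437.20, chromosome 1, 150809705 to 150876768, minus strand), the shared beta subunit, was at 49.5, 55.8, 53.1, 47.0 and 51.2 CPM in siUSP9X replicates 1 to 5, and at 56.5, 47.2, 51.6, 60.9 and 58.4 CPM in siCtrl replicates 1 to 5. The groups overlapped over most of their range. The log2 fold change was -0.10 ± 0.10 (SE) with all libraries and -0.13 ± 0.09 without siUSP9X replicate 2.

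Because alpha and beta subunits pair, the ratio of their counts was taken within each library, a choice made after the values were seen. This ratio does not depend on library scaling. EPAS1 counts were 5.86, 5.90, 5.68, 6.09 and 5.72 times the ARNT counts in siUSP9X replicates 1 to 5, and 2.88, 2.69, 2.75, 2.67 and 2.79 times in siCtrl replicates 1 to 5. Both groups were tight, at 5.85 ± 0.163 in siUSP9X and 2.76 ± 0.0848 in siCtrl (SD, n = 5 each), and replicate 2 lay inside the siUSP9X range. The HIF1A to ARNT ratio was 7.68, 14.3, 7.57, 7.28 and 7.96 in siUSP9X replicates 1 to 5, and 6.32, 6.09, 6.16, 4.55 and 5.38 in siCtrl replicates 1 to 5. It was also higher in every siUSP9X library, but replicate 2 stood far above the others. The ratio of EPAS1 to HIF1A counts was 0.718 to 0.836 in siUSP9X replicates 1, 3, 4 and 5, 0.414 in siUSP9X replicate 2, and 0.442 to 0.586 in siCtrl libraries. Replicate 2 was thus below every siCtrl library for that ratio, and the other 4 siUSP9X libraries above all of them.

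**Figure D2:**
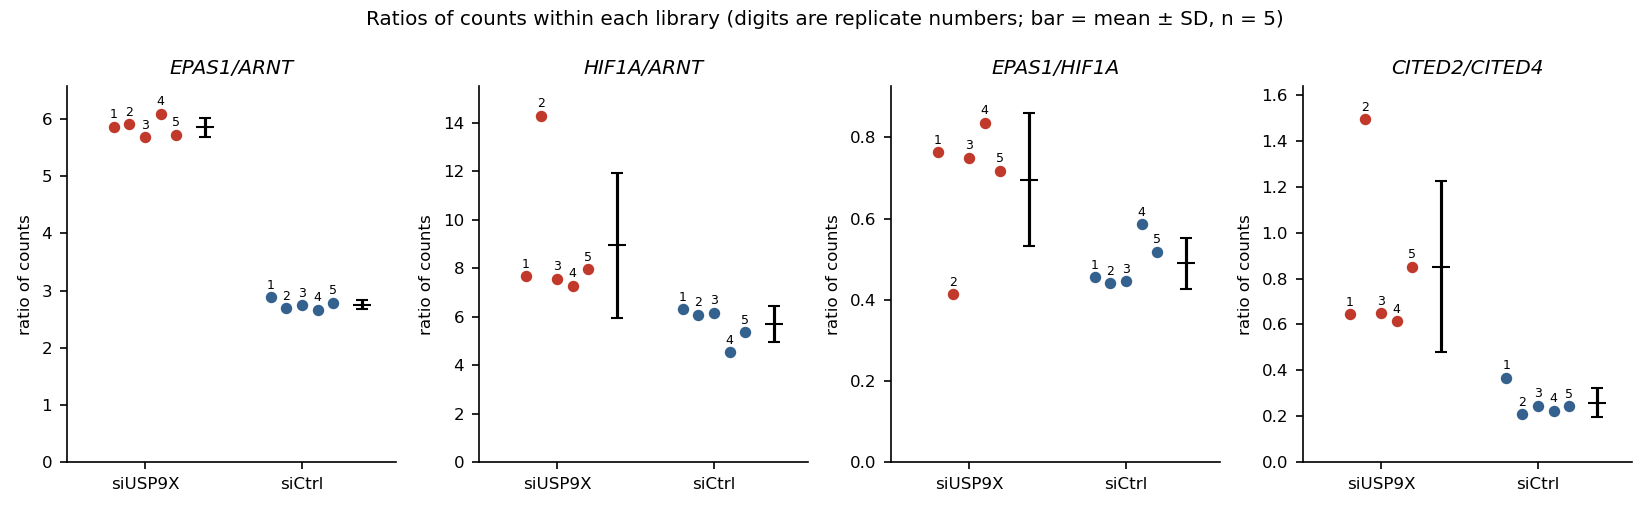
Ratios of raw counts within each library for 4 gene pairs, siUSP9X (red) left of siCtrl (blue), with replicate numbers and mean ± SD (n = 5 each). EPAS1/ARNT lies between 5.68 and 6.09 in siUSP9X and between 2.67 and 2.88 in siCtrl, while replicate 2 separates from the other siUSP9X libraries in the other 3 ratios.

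CITED2 (ENSG00000164442.9, chromosome 6, 139371807 to 139374620, minus strand), the HIF competitor for CBP and p300, was at 121, 81.4, 132, 152 and 154 CPM in siUSP9X replicates 1 to 5, and at 51.8, 53.6, 51.7, 55.0 and 54.6 CPM in siCtrl replicates 1 to 5. All siUSP9X libraries were above all siCtrl libraries, with replicate 2 the lowest of them. The means were 128 ± 29.5 CPM in siUSP9X and 53.3 ± 1.55 CPM in siCtrl (SD, n = 5 each), a ratio of 2.40 and a log2 fold change of 1.26 ± 0.16 (SE), which was 1.39 ± 0.08 without replicate 2. The siCtrl libraries varied by 2.90% (coefficient of variation), about the 3.09% that counting error alone gives at these counts.

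CITED4 (ENSG00000179862.6, chromosome 1, 40861051 to 40862366, minus strand), a related CBP/p300-binding coactivator, did not follow CITED2. It was at 187, 54.5, 203, 248 and 181 CPM in siUSP9X replicates 1 to 5, and at 140.4, 257, 209, 244 and 224 CPM in siCtrl replicates 1 to 5. Replicate 2 held 0.266 times the mean of the other siUSP9X libraries and was below all siCtrl libraries, and the remaining libraries overlapped. The log2 fold change was -0.30 ± 0.32 (SE), and -0.07 ± 0.14 without replicate 2. The count ratio of CITED2 to CITED4 was 0.614 to 1.49 in siUSP9X and 0.209 to 0.369 in siCtrl libraries, without overlap.

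Of the prolyl hydroxylases, EGLN1 (ENSG00000135766.8, chromosome 1, 231363751 to 231425044, minus strand), the main sensor of the family, was at 132, 202, 148, 128 and 144 CPM in siUSP9X replicates 1 to 5, and at 119, 112, 112, 109 and 125 CPM in siCtrl replicates 1 to 5. The groups did not overlap, although the lowest siUSP9X library lay close to the highest siCtrl library. The log2 fold change was 0.39 ± 0.13 (SE), and 0.26 ± 0.08 without replicate 2, which held 1.46 times the mean of the other 4 siUSP9X libraries.

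EGLN2 was low, at 2.10 to 3.95 CPM in siUSP9X and 2.35 to 3.93 CPM in siCtrl libraries (248 and 307 counts in all), with a log2 fold change of -0.04 ± 0.23 (SE). The annotation also holds the read-through gene RAB4B-EGLN2 and the gene AC008537.1 over this locus, both on the same strand. They were assigned 1 and 0 counts over all libraries. The EGLN2 level thus rests on how reads shared with them were handled before deposit, which was not tested. EGLN3 was too low to test. It had 9 counts over the 5 siUSP9X libraries (0.105 CPM, with exact 95% Poisson limits of 0.0480 and 0.199) and 12 in the 5 siCtrl libraries (0.119 CPM, limits 0.0615 and 0.208), so a difference was not detectable at this depth. Its annotated locus overlaps SPTSSA on the same strand. Intervals cover counting error only.

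VHL (ENSG00000134086.7, chromosome 3, 10141008 to 10152220, plus strand), the substrate-binding subunit of the ligase, was at 105, 137, 109, 106 and 118 CPM in siUSP9X replicates 1 to 5, and at 115, 99.0, 109, 103 and 100.4 CPM in siCtrl replicates 1 to 5. siUSP9X replicates 2 and 5 were above every siCtrl library, and the other 3 lay within the siCtrl range. The log2 fold change was 0.13 ± 0.10 (SE), and 0.06 ± 0.07 without replicate 2.

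HIF1AN (ENSG00000166135.13, chromosome 10, 100529072 to 100559998, plus strand), the asparaginyl hydroxylase, was at 69.3, 89.8, 70.1, 74.6 and 79.99 CPM in siUSP9X replicates 1 to 5, and at 58.3, 58.4, 59.0, 58.8 and 60.3 CPM in siCtrl replicates 1 to 5. Every siUSP9X library was above every siCtrl library, and the siCtrl libraries varied by 1.39%, less than the 2.93% given by counting error. The log2 fold change was 0.38 ± 0.10 (SE), and 0.32 ± 0.07 without replicate 2. NDUFB8 on the opposite strand overlaps the locus and had 1660 counts in all, while HIF1AN had 6590 in siUSP9X and 5939 in siCtrl libraries. The sources used here do not give whether counting used strand.

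Without siUSP9X replicate 2, 5 of the 9 genes had an adjusted p under 0.05 (EPAS1, CITED2, HIF1AN, HIF1A and EGLN1, each higher), but so did 23.4% of all tested genes. As the list was chosen on this contrast, nothing is read from these calls.

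**Figure D3:**
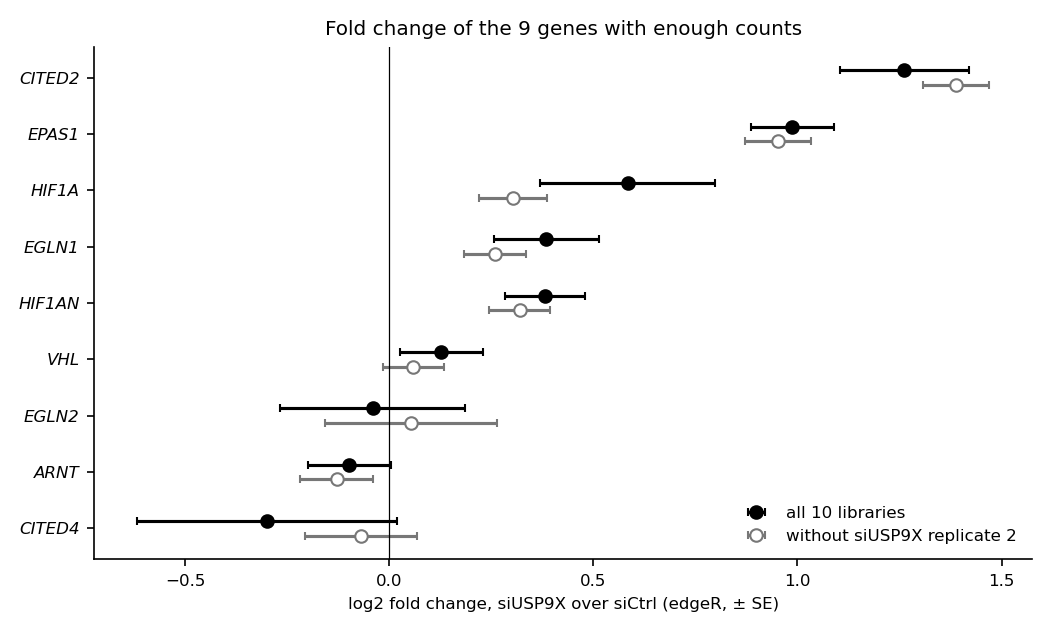
Log2 fold change, siUSP9X over siCtrl, with its standard error for the 9 tested genes, from all 10 libraries (filled) and without siUSP9X replicate 2 (open). CITED2 (1.26 and 1.39) and EPAS1 (0.99 and 0.95) lie far to the right of 0 with both sets of libraries, while HIF1A is at 0.58 with that library and 0.30 without it.

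Levels were compared between genes as CPM per kb of merged coding-transcript exon (GENCODE release 29). The lengths ran from 1316 bases for CITED4 to 13011 for HIF1AN, and the order of the genes depends on them. Which transcripts these cells express was not tested. In siUSP9X libraries the means were 133 ± 54.7 for CITED4, 109 ± 43.9 for HIF1A, 58.1 ± 3.38 for EPAS1, 50.5 ± 11.6 for CITED2, 30.8 ± 3.48 for VHL, 21.2 ± 4.19 for EGLN1, 10.4 ± 0.681 for ARNT, 5.90 ± 0.649 for HIF1AN, 0.960 ± 0.265 for EGLN2 and 0.0218 ± 0.0299 for EGLN3 CPM per kb (SD, n = 5). In siCtrl libraries they were 163 ± 34.5 for CITED4, 73.0 ± 7.34 for HIF1A, 29.3 ± 3.15 for EPAS1, 28.2 ± 1.75 for VHL, 21.0 ± 0.610 for CITED2, 16.3 ± 0.908 for EGLN1, 11.1 ± 1.11 for ARNT, 4.53 ± 0.0628 for HIF1AN, 0.984 ± 0.212 for EGLN2 and 0.0258 ± 0.0278 for EGLN3 CPM per kb (SD, n = 5). The order was the same in both groups except that CITED2 was above VHL in siUSP9X and below it in siCtrl. The ranges of neighbours overlapped for CITED4 and HIF1A and for EPAS1 and CITED2 in siUSP9X, and for EPAS1 and VHL in siCtrl. In siUSP9X the range of VHL (28.2 to 36.6 CPM per kb) also overlapped those of CITED2 (32.1 to 60.7) and, narrowly, EGLN1 (18.01 to 28.4). HIF1A and EPAS1 were above ARNT per kb in every library of both groups. The place of EGLN2 in this order carries the limit given above for reads shared with overlapping genes.

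**Figure D4:**
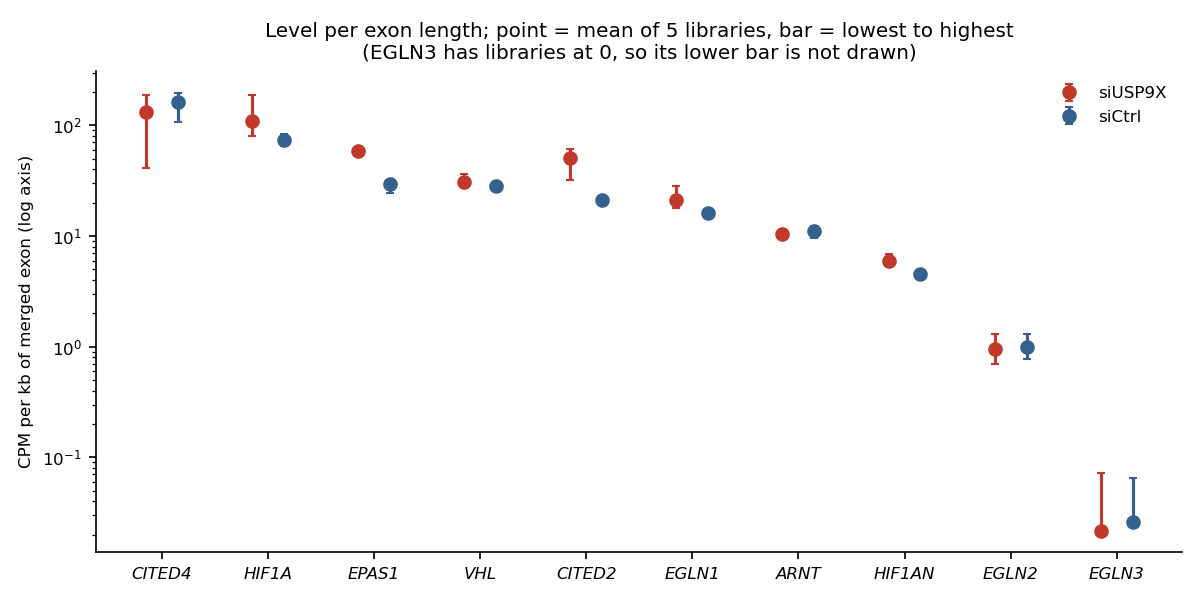
Mean level of each gene in CPM per kb of merged exon on a log axis, with bars from the lowest to the highest of 5 libraries, siUSP9X (red) left of siCtrl (blue), and no lower bar for EGLN3, which has libraries at 0. CITED4 and HIF1A stand at the top, EGLN2 near 1 and EGLN3 far below it, and EPAS1 and CITED2 show the gaps between groups.

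EPAS1 and CITED2, which were both higher in siUSP9X, and EGLN1 and ARNT, for comparison, are represented here by the 300 bases around their RefSeq start (250 before and 50 after, GRCh38.p14), since HIF binds cores of the form ACGTG and GCGTG and EGLN1 and CITED2 are known HIF-inducible genes. Capitals mark each ACGTG or GCGTG on either strand (read as CACGT or CACGC on the other strand), with overlapping matches both marked. EPAS1 is chr2:46297157-46297456, plus strand, CITED2 is the most upstream of 3 starts at chr6:139374599-139374898, minus strand, EGLN1 is chr1:231422238-231422537, minus strand, and ARNT is chr1:150876550-150876849, minus strand.
EPAS1: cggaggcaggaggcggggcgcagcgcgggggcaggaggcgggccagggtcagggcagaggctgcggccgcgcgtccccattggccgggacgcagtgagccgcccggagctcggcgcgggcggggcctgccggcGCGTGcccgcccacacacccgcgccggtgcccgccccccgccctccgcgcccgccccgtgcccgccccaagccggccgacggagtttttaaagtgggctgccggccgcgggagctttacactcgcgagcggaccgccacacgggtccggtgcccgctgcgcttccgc
CITED2: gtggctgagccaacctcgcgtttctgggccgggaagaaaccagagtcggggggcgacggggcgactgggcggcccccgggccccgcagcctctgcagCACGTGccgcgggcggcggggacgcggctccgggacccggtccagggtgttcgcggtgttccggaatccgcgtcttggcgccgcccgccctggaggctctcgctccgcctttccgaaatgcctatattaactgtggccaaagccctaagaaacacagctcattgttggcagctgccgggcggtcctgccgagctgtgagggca
EGLN1: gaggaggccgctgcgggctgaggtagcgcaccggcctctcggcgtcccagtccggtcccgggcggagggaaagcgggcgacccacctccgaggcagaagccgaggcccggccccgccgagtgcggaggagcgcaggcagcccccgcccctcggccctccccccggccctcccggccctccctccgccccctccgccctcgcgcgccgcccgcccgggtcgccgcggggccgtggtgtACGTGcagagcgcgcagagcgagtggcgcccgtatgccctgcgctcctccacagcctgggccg
ARNT: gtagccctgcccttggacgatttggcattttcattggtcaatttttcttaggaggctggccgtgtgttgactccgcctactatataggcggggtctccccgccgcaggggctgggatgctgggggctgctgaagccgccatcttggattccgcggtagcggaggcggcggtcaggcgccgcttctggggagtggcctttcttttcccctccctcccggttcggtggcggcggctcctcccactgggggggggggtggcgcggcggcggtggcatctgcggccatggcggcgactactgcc

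ACGTG matched 2 times in the CITED2 window, as overlapping matches on opposite strands, and 1 time in that of EGLN1, and GCGTG matched 1 time in the EPAS1 window. Neither was found in the ARNT window. Of the 10 genes, 9 had an entry in the table of promoters, and 6 of these held either core at their most upstream start. The 6 were EPAS1, HIF1A, CITED2, CITED4, EGLN1 and EGLN2, while ARNT, EGLN3 and HIF1AN held neither there. CITED4 and EGLN2 thus held a core and HIF1AN, which was higher in siUSP9X, did not. Whether the cores bear on the differences was not tested. Among 35116 promoters of the same length, 21.4% held ACGTG, 36.5% held GCGTG and 48.4% held either, and among the 11309 with over 65% G and C, a class that holds all 4 windows printed, 66.8% held either. A match is a description of letters and not a bound site.

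Of 65 genes that HIF is known to induce, none of them in the list above, 58 had enough counts, and in edgeR's quasi-likelihood test 2 of them rose, 0 fell and the other 56 missed the threshold. The 3.45% called stands beside 7.31% of all tested genes, and the median log2 fold change was 0.12, against 0.03 over all tested genes. This list and the other lists below were drawn up with earlier results of these data known. Their shares of called genes are therefore a description. SLC2A3, the glucose transporter GLUT3, rose to 15.4 ± 2.28 CPM in siUSP9X, against 6.20 ± 0.582 CPM in siCtrl (SD, n = 5 each), with every siUSP9X library (13.2 to 19.1 CPM) above every siCtrl library (5.61 to 6.96 CPM). Its log2 fold change was 1.31 ± 0.13 (SE, edgeR adjusted p = 0.000403), and the call held whichever of the 10 libraries was omitted. PLOD2, a lysyl hydroxylase of collagen, was at 509 ± 157 CPM in siUSP9X and 267 ± 26.7 CPM in siCtrl, a log2 fold change of 0.93 ± 0.18 (edgeR adjusted p = 0.0133) that was 0.73 without siUSP9X replicate 2, where it reached 776 CPM.

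Several widely used hypoxia readouts did not pass the threshold. VEGFA, the main angiogenic growth factor, averaged 63.9 ± 12.6 CPM in siUSP9X and 67.1 ± 4.86 CPM in siCtrl (log2 fold change -0.07 ± 0.14). BNIP3, a mitophagy receptor, averaged 106 ± 9.03 CPM and 107 ± 8.48 CPM (-0.02 ± 0.10), and NDRG1, a stress-response gene, had a log2 fold change of 0.24 ± 0.12. CA9, a carbonic anhydrase, was too low to test, with 16 counts over the siUSP9X libraries (0.187 CPM, with exact 95% Poisson limits of 0.107 and 0.303) and 49 in the siCtrl libraries (0.486 CPM, limits 0.360 and 0.643). These limits cover counting error only and not the spread between libraries, so no difference is read from them. In siCtrl replicate 5 CA9 was at 0.953 CPM, and in the next siCtrl library at 0.454 CPM. ADM, the peptide adrenomedullin, had a log2 fold change of 0.47 ± 0.24 (edgeR adjusted p = 0.212). In siUSP9X replicates 1 to 5 it was at 36.9, 15.2, 39.6, 44.4 and 43.2 CPM, and in siCtrl libraries at 23.8 to 27.2 CPM, so that only replicate 2 was below the controls.

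Of the same 58 target genes without siUSP9X replicate 2, 10 rose and 3 fell, 22.4% against 23.4% of all genes tested in that fit, and the median log2 fold change was 0.12 against 0.01. ADM was then among those that rose (0.66, edgeR adjusted p = 3.07e-05). The 3 that fell, named after their values were seen, were the growth factor gene TGFA (-0.78), the oxidoreductase gene ERO1A (-0.42) and ANKZF1 (-0.50). At an unadjusted p under 0.05 with all libraries edgeR gave 10 higher and 4 lower of the 58 targets, beside 15.9% higher and 11.9% lower of all tested genes. DESeq2 called 4 higher and 3 lower targets, beside 9.25% and 7.89% of all genes with an adjusted p, and limma-voom 2 and 0, beside 3.67% and 3.32%.

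**Figure D5:**
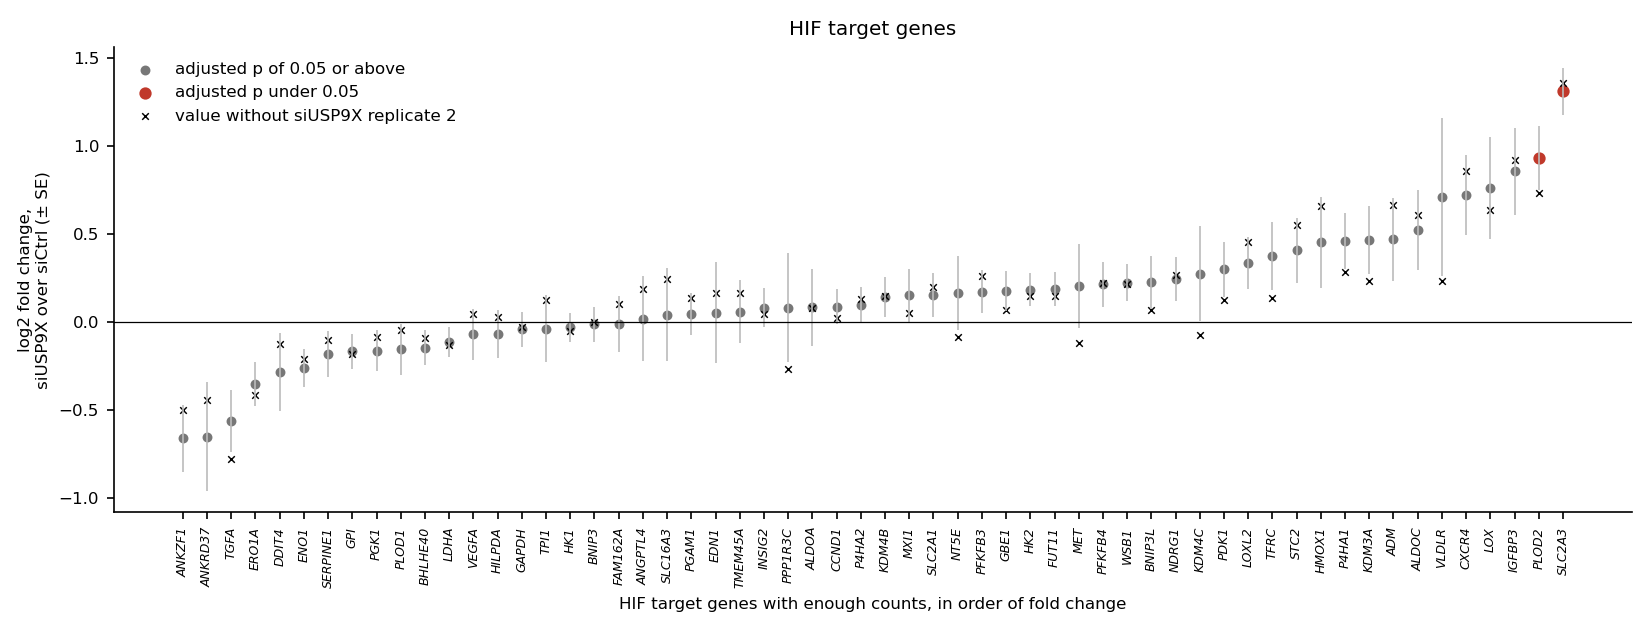
Log2 fold change, siUSP9X over siCtrl, of the 58 HIF target genes with enough counts, in order, with standard errors, and crosses for the value without siUSP9X replicate 2. SLC2A3 (1.31) and PLOD2 (0.93), in red, are the genes with an adjusted p under 0.05, and most others lie between -0.5 and 0.5.

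Among 16 measured partners with a PAS domain or of the p160 family, 3 rose, 1 fell and the other 12 missed the threshold, 25% against 7.31% of all tested genes, with a median log2 fold change of 0.34. As the list was drawn up with earlier results of these data known, no excess is read from its shares. ARNT2, a paralogue of ARNT that can also dimerise with HIF alpha subunits, rose to 15.04 ± 2.66 CPM in siUSP9X, against 8.96 ± 1.52 CPM in siCtrl (log2 fold change 0.75 ± 0.16, edgeR adjusted p = 0.0185). It stood at 12.4 to 19.5 CPM in siUSP9X libraries and 6.85 to 11.04 CPM in siCtrl libraries, and whether its change differed from that of ARNT was not tested. The call was lost without siCtrl replicates 3 or 5 (adjusted p 0.0603 and 0.0510). The coactivator NCOA3 rose, with a log2 fold change of 0.97 ± 0.22 (edgeR adjusted p = 0.0244), and so did AHR, the aryl hydrocarbon receptor that shares ARNT as its partner, with 0.88 ± 0.23 (0.0429). PASK, a PAS-domain kinase, fell by 0.39 ± 0.10 on the log2 scale (edgeR adjusted p = 0.0307). Omitting each of the 10 libraries in turn kept the call of NCOA3 in 5 cases, of AHR in 3 and of PASK in 3, with edgeR adjusted p up to 0.0721, 0.113 and 0.0885. The call of AHR was also lost in limma-voom (limma-voom adjusted p = 0.0526). Without siUSP9X replicate 2, 6 of the 16 rose and 2 fell, 50% against 23.4% of all tested genes, and the log2 fold changes of NCOA3 and AHR were 0.70 and 0.62. At an edgeR unadjusted p under 0.05 there were 7 higher and 2 lower of 16 with all libraries (15.9% and 11.9% of all tested genes). DESeq2 called 4 higher and 2 lower (9.25% and 7.89% of all genes) and limma-voom 2 and 1 (3.67% and 3.32%).

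Of 15 measured CBP/p300 and other HIF co-regulators, 1 rose, 0 fell and the other 14 missed the threshold, 6.67% against 7.31% of all tested genes, with a median log2 fold change of 0.07. CDK8, the Mediator kinase, was at 36.7 ± 3.57 CPM in siUSP9X and 22.6 ± 1.19 CPM in siCtrl (SD, n = 5 each), and rose by 0.70 ± 0.10 on the log2 scale (edgeR adjusted p = 0.00240), a call kept whichever library was omitted. The coactivators that CITED2 and HIF share, EP300 (p300) and CREBBP (CBP), differed by 0.45 ± 0.22 and 0.32 ± 0.17 on the log2 scale, and by 0.24 and 0.21 without siUSP9X replicate 2. That fit gave 2 higher members and 3 lower, 33.3% against 23.4% of all tested genes, the lower ones being RUVBL1 (-0.32), RUVBL2 (-0.37) and FOXO3 (-0.28), named after their values were seen. At an unadjusted p under 0.05 there were 2 higher and 2 lower of 15 with all libraries (15.9% and 11.9% of all tested genes). DESeq2 called 1 higher and 2 lower (9.25% and 7.89% of all genes) and limma-voom 1 and 0 (3.67% and 3.32%).

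Of 32 measured VHL ligase subunits and HIF stability factors, 2 rose, 0 fell and the other 30 missed the threshold, 6.25% against 7.31% of all tested genes, with a median log2 fold change of -0.07. AJUBA, a LIM protein of the family that brings EGLN and VHL together, rose to 158 ± 9.88 CPM in siUSP9X, against 112 ± 3.79 CPM in siCtrl (log2 fold change 0.50 ± 0.08, edgeR adjusted p = 0.00641). FBXW7, the substrate receptor of another ubiquitin ligase, rose as well (log2 fold change 0.92 ± 0.20, edgeR adjusted p = 0.0216), a call lost without siCtrl replicates 2, 3, 4 or 5 (adjusted p 0.0543 to 0.0682). The ligase scaffold CUL2 had 0.48 ± 0.15 (edgeR adjusted p = 0.0757), and the elongin adaptors ELOB and ELOC -0.37 ± 0.27 and -0.34 ± 0.16. In siUSP9X replicate 2 CUL2 was the highest and ELOB and ELOC the lowest of their group, and without it the log2 fold changes were 0.32, -0.16 and -0.23. That fit gave 4 higher and 4 lower members, 25% against 23.4% of all tested genes, and the lower ones, named after their values were seen, included the HIF chaperone genes HSP90AA1 (-0.44) and HSP90AB1 (-0.31). At an unadjusted p under 0.05 there were 5 higher and 2 lower of 32 with all libraries (15.9% and 11.9% of all tested genes). DESeq2 called 3 higher and 0 lower (9.25% and 7.89% of all genes) and limma-voom 2 and 0 (3.67% and 3.32%).

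The last list, called other oxygenases here, held oxygen-dependent oxygenases and related proteins, most of them of the 2-oxoglutarate family of EGLN1 and HIF1AN. Of its 49 measured genes, 4 rose, 1 fell and the other 44 missed the threshold. The share called was 10.2% against 7.31% of all tested genes, and the median log2 fold change was 0.04. KDM7A and KDM5B, histone lysine demethylases, rose, with log2 fold changes of 1.42 ± 0.27 and 1.25 ± 0.24 (edgeR adjusted p = 0.0115 and 0.0116), and 1.08 and 0.95 without siUSP9X replicate 2. KDM5B was at 104, 222, 95.9, 99.5 and 110.1 CPM in siUSP9X replicates 1 to 5, and at 43.1 to 61.3 CPM in siCtrl libraries. TET1, a DNA demethylase, rose by 1.41 ± 0.35 on the log2 scale (edgeR adjusted p = 0.0351), a call lost in limma-voom (limma-voom adjusted p = 0.0535). KDM6B, named after its value was seen, rose by 0.55 ± 0.14 (0.0360), a call kept in 1 of the 10 cases with a library omitted. FTO, an RNA demethylase, fell to 46.8 ± 10.96 CPM in siUSP9X, against 73.8 ± 5.18 CPM in siCtrl (log2 fold change -0.66 ± 0.14; edgeR adjusted p = 0.0219). Without replicate 2 the value was -0.81. Omitting each library in turn kept the calls of FTO and TET1 in 4 of 10 cases each, with edgeR adjusted p up to 0.0605 and 0.0927. ADO, the cysteamine dioxygenase that senses oxygen outside the HIF system, differed by 0.02 ± 0.09 on the log2 scale, and the oxygen-sensitive demethylase KDM6A 0.31 ± 0.16. Without replicate 2, 9 members rose and 6 fell, 30.6% against 23.4% of all genes. At an edgeR unadjusted p under 0.05 there were 11 higher and 6 lower of 49 with all libraries (15.9% and 11.9% of all tested genes). DESeq2 called 8 higher and 3 lower (9.25% and 7.89% of all genes) and limma-voom 3 and 1 (3.67% and 3.32%). No excess is read from the shares of this list either, for the same reason as for the PAS-domain partners.

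Genes whose deviations from the group mean (log2 CPM) followed those of EPAS1, HIF1A and CITED2 over the 10 libraries were sought among 10551 genes of at least 5 CPM, and the 3 with the highest Pearson correlation are given. For EPAS1 these were AFAP1 (r = 0.96), JAG1 (0.93) and SNX29 (0.93), and for HIF1A they were FAM199X, CFAP97 and MMGT1 (0.998, 0.997 and 0.997). For CITED2 they were CSK, SPATA2 and MAP2K3 (0.99, 0.99 and 0.99). Without siUSP9X replicate 2 the values were 0.98, 0.93 and 0.96 for EPAS1, 0.99, 0.98 and 0.98 for HIF1A, and 0.95, 0.95 and 0.92 for CITED2. The points share libraries and depth, and each set holds the best of many genes, so these are descriptions of these libraries.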

How the data were processed

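Per the labels' protocols, TRIzol RNA went into stranded mRNA libraries. The deposited table holds whole-number counts per gene symbol, not normalized, in 10 libraries. RSEM, DESeq2 and hg38 appear in the submitters' processing notes, without role or order, and the sources used here do not give whether the counts are rounded RSEM estimates. Library totals were 15958362 to 26467787. Genes were tested with edgeR 4.0.16 (R 4.3.3; glmQLFit with robust estimation, glmQLFTest, TMM factors, filterByExpr with a minimum count of 10, group as the only term), and p-values were adjusted by Benjamini-Hochberg over all 13934 tested genes, with a threshold of 0.05. The standard error printed with a log2 fold change was derived from this test. It is the value at which the squared ratio of fold change to error equals the quasi-likelihood F statistic. The test was run on simulated data first. Alternatives were RLE factors, library totals, no filter, 5 CPM in 5 libraries, DESeq2 1.42.0, limma-voom (limma 3.58.1), a replicate block and each library left out. Coordinates are from GENCODE release 29 (GRCh38) and promoters from RefSeq.

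The 10 genes and the 5 gene lists were chosen with earlier results of these data known. The genes named are the 10, USP9X, up to 4 called genes per list with the smallest p, 12 pathway genes in any case, and the 3 genes most like EPAS1, HIF1A and CITED2. Others are said to be named after their values were seen. Replicates of a group differed beyond sampling noise in every pair (chi-square per degree of freedom 5.26 or more).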

Additional observations from a re-analysis of the deposited data

Results flagged for a closer look

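Among 72 sets of 5 libraries (36 genes in each group), 15 held a library whose gap to its nearest neighbour was over 0.71 of the whole range, and chance flags about 1 in 20 sets. In 12 of them the library was siUSP9X replicate 2. It was high for HIF1A (797 CPM, next 408), EGLN1 (202 CPM, next 148), NCOA3 (861 CPM), KDM7A (42.7 CPM), KDM5B (222 CPM), FTO (66.3 CPM), TET1 (9.62 CPM), EP300 (257 CPM) and CUL2 (164 CPM), and low for ADM (15.2 CPM, next 36.9), ELOB (34.0 CPM, next 99.1) and ELOC (36.7 CPM). The other 3 were siCtrl libraries, replicate 1 for KDM7A (11.3 CPM), replicate 5 for CA9 (0.953 CPM) and replicate 2 for CREBBP (78.1 CPM). EPAS1, ARNT, CITED2, CITED4, VHL and HIF1AN held no such library.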

How the results depend on the processing

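With 1 library left out, log2 fold changes ran from 0.93 to 1.01 for EPAS1 and 1.19 to 1.39 for CITED2. Without siUSP9X replicate 2, HIF1A had 0.30 against 0.58 with all libraries (SD of siUSP9X libraries 29.7 and 187 CPM), and CITED4 -0.07 against -0.30 (30.1 and 72.0 CPM). EGLN2 (-0.04) was positive without siUSP9X replicate 2 (0.05), siUSP9X replicate 3 (0.05) or siCtrl replicate 4 (0.09). DESeq2 called 1264 genes higher and 1078 lower, against 570 and 449 in edgeR, with 4 HIF targets higher and 3 lower, 3 co-regulators and 11 other oxygenases. Library totals and no filter each gave 1 HIF target lower, and no filter 1 VHL ligase and stability factor. With 1 library left out, calls ran from 170 to 1674 higher and 189 to 1620 lower over all genes, 2 to 5 among the 9 genes, 2 to 10 higher and 0 to 3 lower among HIF targets, 0 to 8 among PAS-domain partners, 1 to 5 among co-regulators, 1 to 8 among VHL ligase and stability factors and 2 to 15 among other oxygenases, each maximum without siUSP9X replicate 2. The replicate block left 34 genes higher and 57 lower, 1 HIF target higher (SLC2A3) and 0 of each other list. Same-numbered libraries did not pair (correlations of deviations from -0.49 to 0.28, 0 of 5 siUSP9X libraries closest to its own number), so these counts say nothing of effect size. The cause of these shifts was not tested. Genes near 1 CPM or less, such as EGLN3 and CA9, are limited by depth.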
